A study of Mus musculus with 2 samples.

Results

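Natural killer (NK) cells are lymphocytes that kill stressed or infected cells without a rearranged antigen receptor. They read target cells through germline receptors such as NKp46, encoded by Ncr1, and NK1.1, encoded by Klrb1c in C57BL/6 mice, and they kill with granules that hold perforin and granzymes. Tissues, skin included, also hold resident innate lymphocytes (ILC1) that carry the same receptors, so these receptors alone do not tell the circulating from the resident kind. TLR9 is an endosomal receptor for DNA rich in unmethylated CpG, and in mice it is best known from dendritic cells and B cells.

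The cells described here are the NK-like cells of healed mouse skin wounds, measured by droplet single-cell RNA sequencing with raw counts of unique molecular identifiers (UMIs). Members were selected on measured UMI counts. A cell was admitted with 500 or more UMIs, 300 or more genes and a mitochondrial share of 15% or less if it had no UMI of Cd3d, Cd3e or Cd3g (the CD3 chains of the T cell receptor complex), at least 1 UMI of Ncr1 or Klrb1c, at least 1 UMI of Nkg7 (a cytotoxic granule protein), and fewer than 5 UMIs of Lyz2 (a myeloid lysozyme). The rule took 106 of the 24649 cells past the cell filter. In both groups adult male wild-type C57BL/6J mice received a circular dorsal wound 1.8 cm across, and skin was taken 2 days after the scab came off. WT_LW wounds were sprayed with PBS and TLR9agonist_LW wounds with the TLR9 agonist ODN2395, on days 0, 3 and 6. Each group is 1 library of cells pooled from several mice, so no difference between the groups has a replicate check, no p-value is given, and every interval is an exact 95% interval for counting error only.

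WT_LW gave 80 NK-like cells of 11443 and TLR9agonist_LW gave 26 of 13206. The NK-like cells of WT_LW held 538402 UMIs in all, with a median of 5356 per cell (range 981 to 42291), and those of TLR9agonist_LW held 145501, with a median of 4826 (range 2158 to 16880). The median number of genes per cell was 2015 in WT_LW and 1785 in TLR9agonist_LW, and the median mitochondrial share was 2.95% and 2.38%. Levels are counts scaled to a common total (CPM), taken over the summed UMIs of these cells, so 1 UMI was worth 1.86 CPM in WT_LW and 6.87 CPM in TLR9agonist_LW. The libraries shared 39 cell barcodes past the filter, none of them of an NK-like cell.

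The cells were chosen by the values of the following genes, which are therefore a description only. Ncr1 had 124 UMIs in 59 of the 80 WT_LW cells and 47 UMIs in 20 of the 26 TLR9agonist_LW cells, which is 230 and 323 CPM. Klrb1c had 93 UMIs in 55 cells and 38 UMIs in 21 cells, or 173 and 261 CPM. Nkg7 had 404 and 138 UMIs, or 750 and 948 CPM. Both receptors were seen in 34 WT_LW and 15 TLR9agonist_LW cells, Ncr1 alone in 25 and 5, and Klrb1c alone in 21 and 6. Cells that entered on a single UMI of Ncr1 and Klrb1c together numbered 22 and 4, and those that entered on a single UMI of Nkg7 numbered 15 and 4.

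Just outside the rule, 13 WT_LW and 4 TLR9agonist_LW cells met every other limit and held 1 UMI of the Cd3 genes. Klrb1b, a lectin-like NK receptor, was detected in 69.2% and 100% of these cells, against 86.3% and 80.8% inside the rule. Cells with 2 to 5 Cd3 UMIs numbered 8 and 4, and none had a UMI of Klrb1b. Those with 6 or more Cd3 UMIs numbered 22 and 10, and Klrb1b was detected in 22.7% and 50% of them. Gzmc was detected in 27.3% and 40% of these, so neither gene was confined to cells without Cd3. Cells kept out by an absence of Nkg7 numbered 20 and 6, those kept out by Lyz2 numbered 4 and 1, and those that had Nkg7 but no Ncr1 or Klrb1c numbered 207 and 83. Klrb1b was seen in 14.5% and 7.23% of the last of these.

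The label was checked with genes the rule did not use. Klrk1, encoding the activating receptor NKG2D, was detected in 93.8% of the WT_LW and 100% of the TLR9agonist_LW cells. Il2rb, the IL-2 and IL-15 receptor chain, was seen in 88.8% and 100%, Fcer1g, a signalling adaptor of NKp46, in 95% and 96.2%, and Tyrobp, the adaptor DAP12, in 88.8% and 96.2%. Klrd1, encoding CD94, was seen in 87.5% and 76.9%, and Xcl1, a chemokine that draws cross-presenting dendritic cells, in 91.3% and 96.2%. Klre1, a further lectin-like NK receptor, was seen in 38.8% and 50%. With every cell thinned to 1500 UMIs, Klrk1 was found in 78.2% and 76.9% of NK-like cells, against 0.96% and 0.30% of fibroblasts and 1.52% and 0.59% of keratinocytes. Klrk1 is not particular to these cells, since CD8 cytotoxic T cells held 456 and 369 CPM, against 745 and 790 CPM in NK-like cells. Nor are the adaptors. All other cells held 494 and 273 CPM of Fcer1g, against 1085 and 1828 CPM in NK-like cells. Of Tyrobp they held 429 and 190 CPM, against 1014 and 1072 CPM.

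Genes typical of circulating NK cells were mixed. Eomes, a transcription factor of conventional NK cells, was detected in 12.5% and 11.5%. Itga2, encoding CD49b, had 3 UMIs in each library, S1pr5, a receptor for exit into blood, had 1 and 0, and Klrg1, a receptor of mature NK cells, had 1 and 4. Prf1, encoding perforin, was detected in 25% and 26.9% of the cells, and Klf2, a factor of recirculating lymphocytes, in 52.5% and 34.6%. Of 12 T cell markers, Cd8a, Cd8b1 and Trat1 had no UMI, while Cd5, Cd6 and Themis had 1 UMI each in WT_LW and none in TLR9agonist_LW. Cd28, a costimulatory receptor best known on T cells, had 139 UMIs in 60% of the WT_LW cells and 22 UMIs in 50% of the TLR9agonist_LW cells, and Icos, a related receptor, had 48 UMIs in 37.5% and 16 UMIs in 42.3%. Foxp3 and the B cell gene Ms4a1 had no UMI. Lat, an adaptor of T cell signalling, was detected in 21.3% and 15.4%, and Bcl11b in 7.5% and 3.85%. The 12 markers summed to 410 and 316 CPM, below the 636 and 477 CPM of all other cells. All other cells are a mixture of types, so this comparison does not measure T cell content. Cells without a UMI of any of 8 T cell genes, Cd28 and Lat among them, numbered 25 in WT_LW and 12 in TLR9agonist_LW. Klrk1, Klrd1, Il2rb, Fcer1g and Tyrobp were thus detected in most of the cells. Klre1 was detected in fewer, and Eomes, Itga2, S1pr5 and Klrg1 were not detected in most of the cells at this depth.

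The sequences upstream of the gene that anchors the rule and of the 3 granzyme genes that separate these cells are shown because the granzymes did not move together. They are the 250 bases before the RefSeq start on GRCm38.p6, read 5′ to 3′ on the strand of the gene, and all 4 genes were matched by symbol. Ncr1 lies upstream of its start at chr7:4337465-4337714 (+), Gzma at chr13:113100982-113101231 (-), Gzmc at chr14:56234658-56234907 (-) and Gzmb at chr14:56262335-56262584 (-).
Ncr1: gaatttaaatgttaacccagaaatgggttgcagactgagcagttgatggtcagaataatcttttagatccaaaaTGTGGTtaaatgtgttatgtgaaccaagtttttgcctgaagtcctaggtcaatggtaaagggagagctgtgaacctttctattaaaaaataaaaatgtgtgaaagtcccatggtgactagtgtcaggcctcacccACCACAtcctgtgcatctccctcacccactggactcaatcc
Gzma: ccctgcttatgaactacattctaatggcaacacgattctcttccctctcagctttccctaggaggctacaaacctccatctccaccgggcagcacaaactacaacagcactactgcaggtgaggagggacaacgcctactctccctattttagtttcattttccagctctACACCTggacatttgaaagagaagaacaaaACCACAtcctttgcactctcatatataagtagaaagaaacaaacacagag
Gzmc: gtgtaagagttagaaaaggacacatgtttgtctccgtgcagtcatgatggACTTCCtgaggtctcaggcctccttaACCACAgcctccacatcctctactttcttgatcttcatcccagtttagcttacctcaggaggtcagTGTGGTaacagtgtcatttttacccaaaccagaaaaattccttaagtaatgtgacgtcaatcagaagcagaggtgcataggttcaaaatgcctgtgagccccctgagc
Gzmb: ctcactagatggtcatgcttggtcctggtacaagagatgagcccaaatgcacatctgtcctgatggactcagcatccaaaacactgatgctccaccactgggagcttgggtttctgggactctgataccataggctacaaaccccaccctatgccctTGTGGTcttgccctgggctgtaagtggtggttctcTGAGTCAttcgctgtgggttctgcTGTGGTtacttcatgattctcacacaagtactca
Capitals mark matches on either strand to AGGTGT (a T-box motif, bound by factors such as Eomes and T-bet), TGTGGT (RUNX), TGANTCA (AP-1) and GGAAGT (ETS). Ncr1 held 2 RUNX matches. Gzma held 1 T-box and 1 RUNX match, Gzmc 2 RUNX and 1 ETS match, and Gzmb 2 RUNX and 1 AP-1 match. Of all 32851 promoters of this length, 11.8% held the T-box letters, 14.0% the RUNX letters, 6.75% the AP-1 letters and 19.7% the ETS letters. A match describes the letters of the window and is no evidence of binding.

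NK-like cells took a smaller share of the cells in TLR9agonist_LW. They were 0.699% of filtered cells in WT_LW (0.555 to 0.869%) and 0.197% in TLR9agonist_LW (0.129 to 0.288%), a log2 ratio of TLR9agonist_LW over WT_LW of -1.83 (-2.53 to -1.17). Counted among cells with a UMI of Ptprc (CD45, on nearly all leukocytes), the shares were 1.11% and 0.442%, with a log2 ratio of -1.33 (-2.03 to -0.67). Among lymphocyte-like cells, that is NK-like cells plus cells with a Cd3 UMI and fewer than 5 Lyz2 UMIs, they were 1.62% and 0.487%, with a log2 ratio of -1.73 (-2.43 to -1.08). The share was lower in TLR9agonist_LW whichever denominator was used.

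Lyz2 bears on the size of this difference. WT_LW carried more Lyz2 RNA in all other cells (2046 CPM) than TLR9agonist_LW (712 CPM), and 31 of the 80 WT_LW NK-like cells had no Lyz2 UMI, against 19 of the 26 in TLR9agonist_LW. Without any Lyz2 UMI allowed, the log2 ratio of the shares was -0.91. The most similar population, CD8 cytotoxic T cells (Cd3, Cd8a or Cd8b1, and Nkg7 present, no Cd4, fewer than 5 Lyz2 UMIs), went the same way, from 467 cells or 4.08% to 220 cells or 1.67%, a log2 ratio of -1.29 (-1.53 to -1.06). Other T cells (at least 2 Cd3 UMIs, no Nkg7) went from 2323 cells or 20.3% to 3506 cells or 26.5%, a log2 ratio of 0.39. The shares depend on every cell in the suspension, and a difference between pools of mice cannot be told apart from the treatment.

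**Figure D1:**
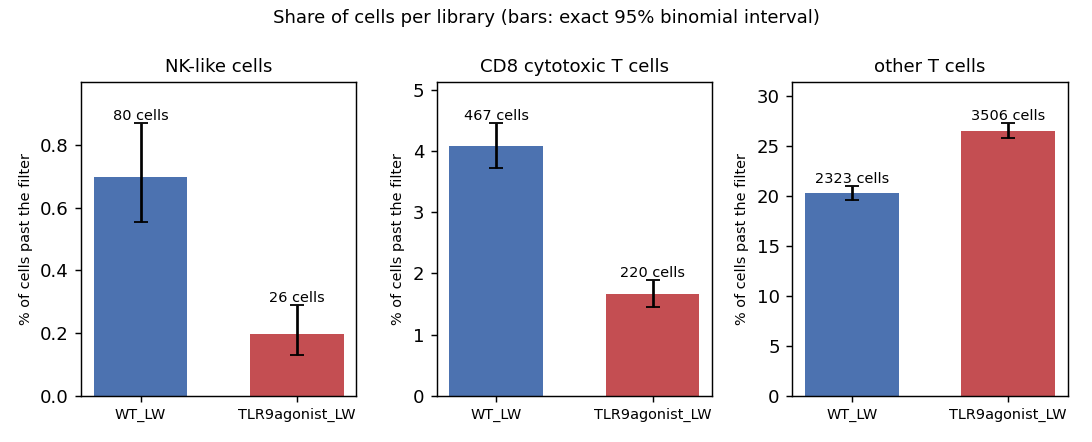
Share of the cells past the filter, in percent, that were NK-like cells, CD8 cytotoxic T cells or other T cells in each library; the axes differ between panels, each starts at 0, and error bars are exact 95% binomial intervals. NK-like and CD8 cytotoxic T cells had a lower share in TLR9agonist_LW, and other T cells a higher share.

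Among themselves the NK-like cells differed most plainly in which granzyme they carried. Granzymes are granule proteases; granzyme A (Gzma) and granzyme B (Gzmb) are typical of circulating NK cells, and granzyme C (Gzmc) has been described in tissue-resident innate lymphocytes. Gzma was detected in 12 of 80 WT_LW cells (15%, 8.0 to 24.7%) and 9 of 26 TLR9agonist_LW cells (34.6%, 17.2 to 55.7%). Gzmc was detected in 44 of 80 cells (55%, 43.5 to 66.2%) and 5 of 26 cells (19.2%, 6.55 to 39.4%). The intervals of the libraries overlap for Gzma and do not overlap for Gzmc.

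The granzymes were hardly ever found in the same cell. A single WT_LW cell had both, with 16 Gzma and 3 Gzmc UMIs, and no TLR9agonist_LW cell did. The 12 WT_LW cells with Gzma had a median of 15 Gzma UMIs (range 2 to 65) and the 9 TLR9agonist_LW cells a median of 23 (range 1 to 68). The 44 WT_LW cells with Gzmc had a median of 18.5 Gzmc UMIs (range 1 to 520) and the 5 TLR9agonist_LW cells a median of 91 (range 1 to 162). Neither granzyme was detected in 25 WT_LW cells (31.3%) and 12 TLR9agonist_LW cells (46.2%).

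Within the cells that had them, the summed levels of the granzymes were higher in TLR9agonist_LW. Gzma stood at 5155 CPM (4548 to 5821) in the WT_LW and 6200 CPM (5401 to 7085) in the TLR9agonist_LW cells with Gzma. Gzmc stood at 10508 CPM (10177 to 10848) in the WT_LW and 12471 CPM (11270 to 13765) in the TLR9agonist_LW cells with Gzmc. The intervals overlap for Gzma and not for Gzmc, but they leave out the spread between cells, so no difference is read from them. The Gzmc level of TLR9agonist_LW rests on 5 cells, which held 162, 139, 91, 1 and 1 Gzmc UMIs.

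As a share of all filtered cells, NK-like cells with Gzma made up 0.105% of WT_LW and 0.0682% of TLR9agonist_LW, a log2 ratio of -0.62 whose interval includes 0 (-2.05 to 0.75). Those with Gzmc made up 0.385% and 0.0379%, a log2 ratio of -3.34 (-5.04 to -2.01). Those without Gzma made up 0.594% and 0.129%, a log2 ratio of -2.21 (-3.07 to -1.42). The intervals of the Gzma and Gzmc ratios overlap narrowly, and the difference between them was not tested.

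Il7r, the IL-7 receptor chain that resident innate lymphocytes keep and mature NK cells lack, was rare in the cells with Gzma and common in the others. It was detected in 57 WT_LW cells (71.3%) and 15 TLR9agonist_LW cells (57.7%). Of the cells with Gzma, 0 of 12 in WT_LW and 1 of 9 in TLR9agonist_LW had an Il7r UMI, while of those with Gzmc 35 of 44 and 4 of 5 did, and of those with neither granzyme 22 of 25 and 10 of 12. Thinned to 1500 UMIs per cell, 11 of 78 WT_LW and 8 of 26 TLR9agonist_LW cells had Gzma, 36 and 4 had Gzmc, and no cell had both. Thinned fibroblasts had Gzma in 0% and 0.12% of cells, Gzmc in 0.77% and 0.36%, and Il7r in 2.31% and 1.88%.

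**Figure D2:**
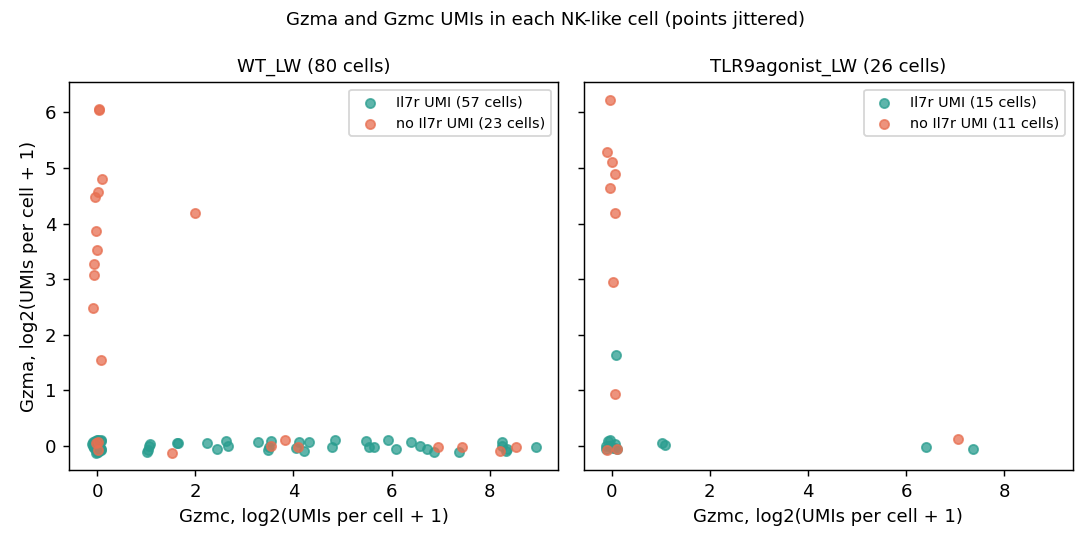
Gzma against Gzmc in each of the 80 WT_LW (left) and 26 TLR9agonist_LW (right) NK-like cells, as log2(UMIs per cell + 1) with a small jitter; colour marks whether the cell had an Il7r UMI. The points lie along the axes, with 1 WT_LW cell off both, and the cells along the Gzma axis lack Il7r except for 1 TLR9agonist_LW cell.

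Cells with and without a Gzma UMI were then set side by side in each library; this split was chosen after the values were seen and is a description. Cells with Gzma had a median of 3245 UMIs in WT_LW and 4016 in TLR9agonist_LW, and cells without it 5741 and 6052. Of 13 circulating NK-type genes other than Gzma with UMIs in both libraries, 9 had a higher level in the cells with Gzma in both libraries and 0 a lower one. The other 4, Klf2, Zeb2, Cx3cr1 and Ly6c2, were mixed between the libraries. Of 16 ILC1-type and tissue residency genes, 0 were higher and 13 were lower in the cells with Gzma in both libraries. Of 26 NK receptor genes, 13 were higher and 8 lower. No minimum count or fold was needed to be counted. Klrg1 counted as higher at 19.8 against 0 CPM in WT_LW, and Cd7 as lower at 287 against 298 CPM in TLR9agonist_LW. The share of all genes that were higher or lower with Gzma in both libraries is not given, so these counts only describe the lists. The residency list also holds Gzmc, which was hardly ever found with Gzma.

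The genes of the cells with Gzma were as follows, given as CPM with against without Gzma. Ccl5, a chemokine for T cells and monocytes, stood at 7634 against 234 CPM in WT_LW and 7349 against 54.2 CPM in TLR9agonist_LW. Eomes stood at 258 against 10.2 CPM and 230 against 0 CPM. These genes were therefore concentrated in the few cells with Gzma in each library.

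Gzmb stood at 734 against 88.1 CPM in WT_LW and 373 against 63.3 CPM in TLR9agonist_LW. Irf8, a transcription factor used by NK and myeloid cells, stood at 1170 against 314 CPM and 1062 against 325 CPM. The Ly49 receptors, encoded by the Klra genes, sense MHC class I and mark subsets of NK cells. Klra7 stood at 218 against 0 CPM and 459 against 0 CPM, and Klra8 at 377 against 0 CPM and 115 against 18.1 CPM. Of 9 WT_LW cells with a UMI of Klra3, Klra4, Klra7, Klra8 or Klra9, 8 had Gzma, and of 8 such TLR9agonist_LW cells, 7 had Gzma. These receptor genes are near-identical in sequence, and how reads were divided among them is uncertain.

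Several genes used to describe resident innate lymphocytes were higher in the cells without Gzma. Of the residency list, 3 genes were mixed between the libraries, Rgs1, Itga1 and Tnfsf10. Rgs1 was higher with Gzma in TLR9agonist_LW (2268 against 904 CPM) and Itga1 in WT_LW (99.1 against 63.5 CPM). Il7r stood at 0 with against 641 CPM without Gzma in WT_LW, and at 115 against 443 CPM in TLR9agonist_LW. Cxcr6, a receptor that holds lymphocytes in tissue, stood at 0 against 94.3 CPM and 0 against 117 CPM. Itgae, the integrin CD103 that binds E-cadherin on epithelium, stood at 0 against 75.8 CPM and 0 against 226 CPM. T cells held Il7r and Itgae too. In WT_LW and TLR9agonist_LW, Il7r stood at 411 and 426 CPM in CD8 cytotoxic T cells and at 659 and 658 CPM in other T cells. Itgae stood at 132 and 68.2 CPM in CD8 cytotoxic T cells and at 110 and 77.2 CPM in other T cells.

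Tmem176b, a transmembrane protein common in ILCs, stood at 19.8 against 240 CPM in WT_LW and 0 against 298 CPM in TLR9agonist_LW. Kit, the stem cell factor receptor, stood at 0 against 180 CPM and 86.1 against 262 CPM. Rora, a transcription factor of ILCs, stood at 0 against 529 CPM and 287 against 524 CPM. The WT_LW cells with Gzma held 50435 UMIs in all, and a count of 0 there for Il7r allows a level of up to 73.1 CPM.

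Klrk1, Tyrobp and Fcer1g differed by less than 2-fold between the kinds in each library. Klrk1 stood at 535 with against 766 CPM without Gzma in WT_LW and at 775 against 795 CPM in TLR9agonist_LW. Tyrobp stood at 1428 against 971 CPM and 1407 against 967 CPM, and Fcer1g at 1507 against 1041 CPM and 2182 against 1717 CPM, both somewhat higher with Gzma. Xcl1, which the residency list holds, was lower with Gzma, at 1368 against 2037 CPM and 2497 against 3750 CPM.

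**Figure D3:**
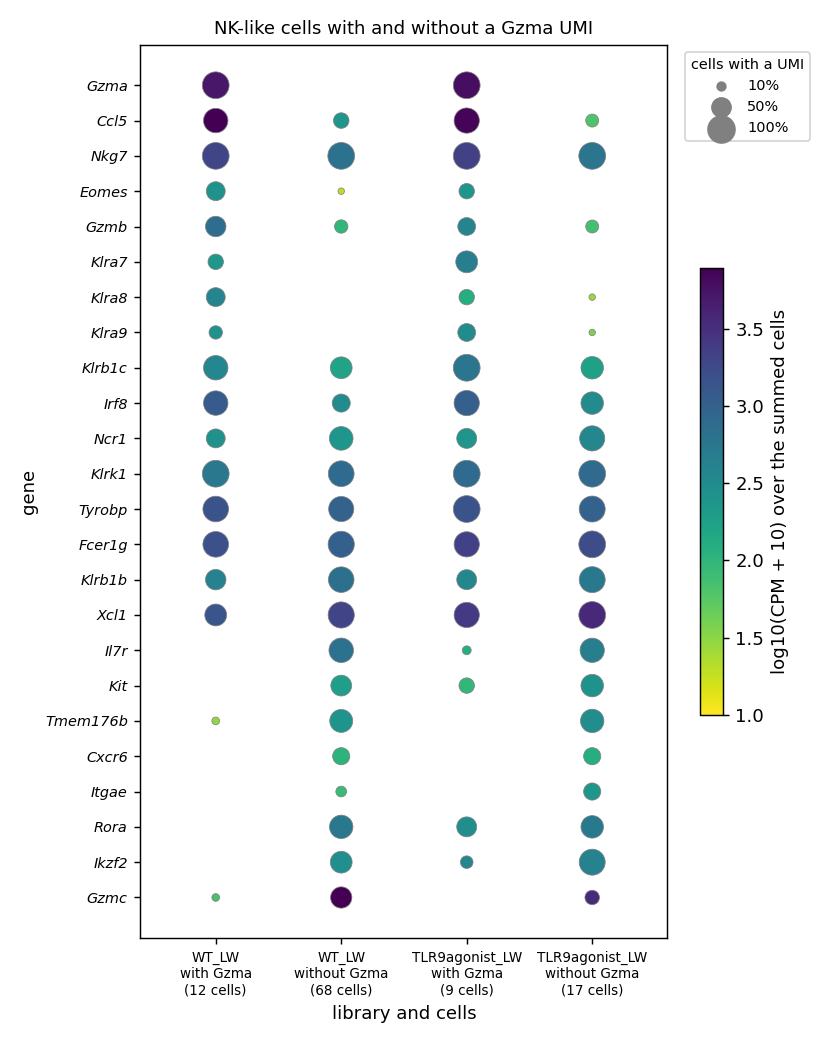
NK-like cells with and without a Gzma UMI in each library; dot area gives the share of cells with a UMI of the gene, colour gives log10(CPM + 10) over the summed cells, and a gene with no UMI has no dot. Ccl5, Eomes and the Klra genes are concentrated in the cells with Gzma, Il7r, Tmem176b, Cxcr6 and Itgae in those without, and Klrk1, Tyrobp and Fcer1g are seen in all 4 columns.

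CD8 cytotoxic T cells share the granule genes of NK cells and were the nearest comparison. Of 3977 genes compared, 65 were at least 2-fold higher and 113 at least 2-fold lower in NK-like cells in both libraries. The rule fixes part of this contrast, since Cd3d, Cd3e, Cd3g, Cd8a and Cd8b1 separate the populations by construction, and no test is given. Ranked by the smaller of the 2 libraries' log2 ratios, the highest of the others was Klrb1b, with 648 CPM in NK-like and 4.35 CPM in CD8 cytotoxic T cells of WT_LW and 474 and 3.13 CPM in TLR9agonist_LW. Gzmc stood at 7077 against 48.6 CPM in WT_LW and 2708 against 8.76 CPM in TLR9agonist_LW. Granzyme C was therefore almost wholly a transcript of the NK-like cells among these 2 cytotoxic populations.

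The other leading genes included the adaptors Tyrobp (log2 ratio of NK-like over CD8 cytotoxic T cells of 4.07 in WT_LW and 3.95 in TLR9agonist_LW) and Fcer1g (3.65 and 4.73). Xcl1 stood at 1974 against 241 CPM in WT_LW and 3450 against 87.0 CPM in TLR9agonist_LW. Irf8 had log2 ratios of 3.84 and 4.74, Txk, a Tec family kinase, of 2.84 and 3.70, and Cd83, an activation marker, of 3.16 and 3.91. Vegfa, the endothelial growth factor, had 4.01 and 4.41, Nrgn, a calmodulin-binding protein best known from neurons, 4.90 and 8.46, and Car2, a carbonic anhydrase, 6.33 and 4.25.

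Pglyrp1, Serpina3g, Spry2 and Gem completed the 15 highest genes. Among the 15 lowest outside the rule, Bcl11b, a transcription factor of T cell commitment, had log2 ratios of -3.93 and -3.55 and Il21r, the IL-21 receptor, -3.01 and -3.97. Havcr2 and Ctla4, both checkpoint receptors, had 0 and 4 UMIs in the WT_LW and 1 and 0 UMIs in the TLR9agonist_LW NK-like cells. Mxi1, Prkca and Kcnn4 were also among the lowest, and so were Defb6, Krt79 and Ly6g6c, which are epithelial genes.

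Shared cytotoxic genes did not split the populations in a single direction. Gzmb was lower in NK-like cells in both libraries (log2 -1.72 and -2.11), and so was Ccl5 (-2.17 and -1.65). Klrk1 was higher (0.71 and 1.10), and so was Klrd1 (0.92 and 1.41). Gzma was lower than in CD8 cytotoxic T cells in WT_LW (-0.65) and higher in TLR9agonist_LW (1.58).

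**Figure D4:**
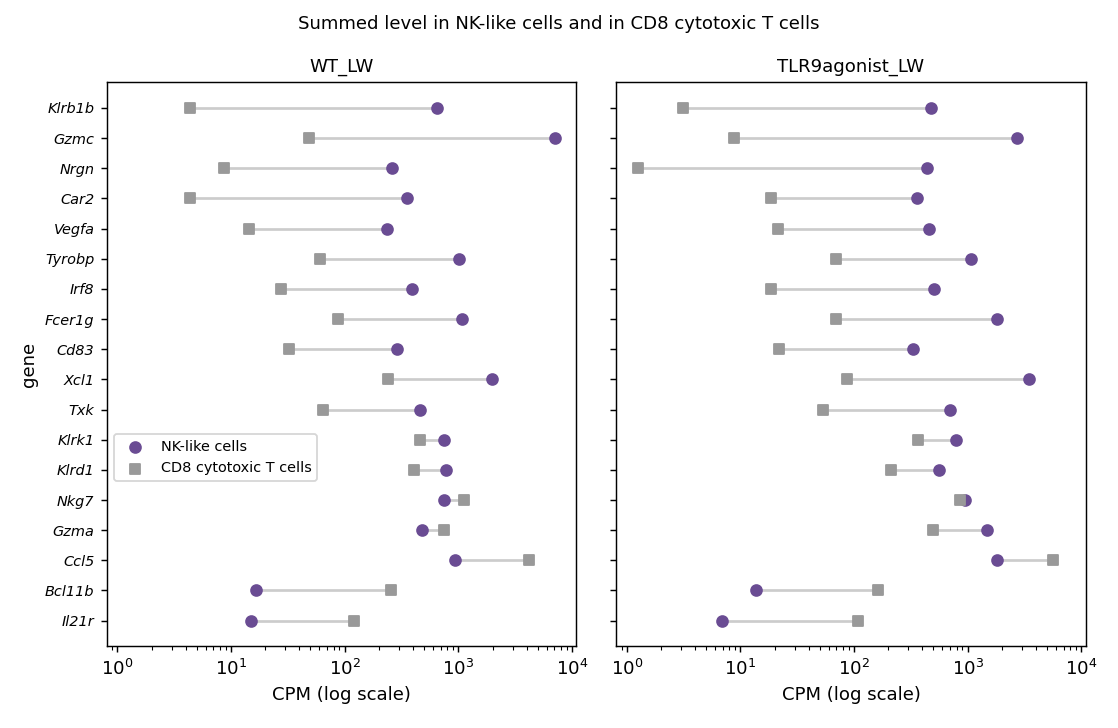
Summed level of 18 genes, in CPM on a log axis, in NK-like cells (circles) and CD8 cytotoxic T cells (squares) of each library. Klrb1b, Gzmc, Tyrobp, Irf8, Fcer1g and Xcl1 were higher in NK-like cells in both libraries, and Gzma changed sides between the libraries.

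Within the NK-like cells the 2 libraries were compared over the 2057 genes with at least 50 UMIs in all. Of these, 64 (3.11%) were at least 2-fold higher and 144 (7.00%) at least 2-fold lower in TLR9agonist_LW by CPM, and the median log2 ratio was -0.01. A log2 ratio above 0 was found for 1009 of the 2057. These shares are the background against which each list of genes is read. Free RNA from other cells can add to any of these counts, and it adds least to genes that the NK-like cells hold in excess. Of 83 genes at least 4-fold higher in NK-like cells than in all other cells of both libraries, 3 were past 2-fold higher and 5 past 2-fold lower. The 3 were Gzma, Ifng and Cd226, and the 5 included Gzmc, Cd69, Styk1 and Dscam.

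The receptors and their adaptors were close to level. Of 29 NK receptor genes, 16 had 50 UMIs; 1 was past 2-fold higher and 0 lower, with a median log2 ratio of 0.12. The 1 was Cd226, encoding the activating receptor DNAM-1, with 37 UMIs or 68.7 CPM in WT_LW and 20 UMIs or 137 CPM in TLR9agonist_LW. Its log2 ratio was 1.0 (0.14 to 1.82). Klrk1 stood at 745 and 790 CPM, with a log2 ratio of 0.09 (-0.23 to 0.39), and Tyrobp at 1014 and 1072 CPM, 0.08 (-0.19 to 0.34).

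Fcer1g stood at 1085 and 1828 CPM, with a log2 ratio of 0.75 (0.54 to 0.96), and Klrd1 at 780 and 557 CPM, -0.49 (-0.85 to -0.14). Klrc1, encoding the inhibitory NKG2A chain that pairs with CD94, stood at 624 and 887 CPM, 0.51 (0.20 to 0.80). Of 16 checkpoint receptor genes, 6 could be compared and 0 were past 2-fold in either direction.

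The granule genes went in both directions. Of 21 genes, 10 had 50 UMIs, 1 was past 2-fold higher and 3 lower, with a median log2 ratio of -0.06. Gzma had 260 UMIs in 12 WT_LW cells and 216 UMIs in 9 TLR9agonist_LW cells, which is 483 and 1485 CPM and a log2 ratio of 1.62 (1.35 to 1.89). Gzmc had 3810 UMIs in 44 cells and 394 UMIs in 5 cells, which is 7077 and 2708 CPM and -1.39 (-1.54 to -1.24). In CD8 cytotoxic T cells Gzma had a log2 ratio of -0.60 and Gzmc of -2.47.

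Both granzyme ratios depend on which cells are admitted. With cells that had a UMI of any of 8 T cell genes, Cd28 among them, left out, 25 WT_LW and 12 TLR9agonist_LW cells remained and the ratios were 0.36 for Gzma and -0.09 for Gzmc. Without any Lyz2 UMI allowed they were 2.31 and -0.89. Gzmd, a neighbour of Gzmc in the granzyme cluster, had 62 UMIs in 3 WT_LW cells, 71.0% of them in 1 cell, and none in TLR9agonist_LW. Gzme had 15 and 0 UMIs and Gzmf 31 and 0. Gzmb stood at 149 and 137 CPM, with a log2 ratio of -0.11 (-0.90 to 0.61). Ctsc, the protease that activates granzymes, was the third gene past 2-fold lower, with 55 and 7 UMIs (-1.09, -2.47 to 0.05).

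The secreted factors split. Of 20 cytokine and chemokine genes, 9 could be compared, and 1 was past 2-fold higher and 1 lower. A log2 ratio above 0 was found for 7, against 1009 of all 2057 genes compared. Xcl1 was detected in 73 of 80 and 25 of 26 cells and stood at 1974 and 3450 CPM, with a log2 ratio of 0.81 (0.65 to 0.96), against 24.2 and 7.24 CPM in all other cells. In CD8 cytotoxic T cells its log2 ratio was -1.47. Under every alternative run the Xcl1 ratio was above 0.

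Ifng, encoding interferon-γ, stood at 295 and 632 CPM, with a log2 ratio of 1.10 (0.71 to 1.48), but 57.6% of its TLR9agonist_LW UMIs were in 1 cell. Without the cell richest in Ifng in each library its ratio was 0.17. Ccl4, an inflammatory chemokine, stood at 412 and 192 CPM, -1.10 (-1.72 to -0.53), with 53.6% of its TLR9agonist_LW UMIs in 1 cell. Ccl5 stood at 927 and 1801 CPM, 0.96 (0.74 to 1.18), and with the Gzma cells left out its ratio was -2.11. Ccl5 stood higher in the cells with Gzma, as given above, and what part their share had in its ratio was not tested.

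Of 23 NK and ILC transcription factor genes, 15 could be compared, 1 was past 2-fold higher and 0 lower, with a median log2 ratio of 0.30. The 1 was Zeb2, a repressor used in NK maturation and in myeloid cells, with 29 and 32 UMIs or 53.9 and 220 CPM (2.03, 1.26 to 2.81). All other cells held more of it, at 432 and 398 CPM, and 43.8% of its TLR9agonist_LW UMIs were in 1 cell. Ets1 had a log2 ratio of 0.71, Ikzf2 of 0.61, Irf8 of 0.35 and Id2, a factor all innate lymphocytes need, of -0.05.

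The list of circulating NK-type genes had 4 of 15 members to compare, of which Gzma and Zeb2 were past 2-fold higher. Of 18 ILC1-type and tissue residency genes, 14 could be compared, 1 was past 2-fold higher and 2 lower, with a median of -0.19. Itgae had 37 UMIs in 11 cells and 25 UMIs in 7 cells, a log2 ratio of 1.32 (0.53 to 2.09), with 44% of the TLR9agonist_LW UMIs in 1 cell. Without the richest cell of each library it was 0.84. Cd69, an early activation and retention receptor, stood at 422 and 172 CPM, -1.30 (-1.95 to -0.70), and Gzmc is given above. Il7r had a log2 ratio of -0.67, Rgs2 of -0.82 and Rgs1 of -0.51, while Cxcr6 had 0.06 and Tmem176b 0.05.

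Of 21 cytokine receptor genes, 10 could be compared and 1 was past 2-fold lower, Il2ra (the inducible IL-2 receptor chain, 71 and 8 UMIs, -1.26, -2.53 to -0.21). Il2rb had a log2 ratio of 0.26. Of 23 homing receptor and integrin genes, 13 could be compared and 1 was past 2-fold higher, Itgae. Of 14 ILC2 and ILC3 genes, Areg alone reached 50 UMIs, with 59 and 20 UMIs and a log2 ratio of 0.33. Areg encodes amphiregulin, an epidermal growth factor receptor ligand. Il13, Il5, Il22 and Il23r had no UMI in either library.

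The genes of the treated pathway were near or under detection. Tlr9 had no UMI in any of the 106 cells. Of 22 Toll-like receptor and adaptor genes, 2 reached 50 UMIs, Irak1 with a log2 ratio of 0.03 and Irak2, a kinase downstream of MyD88, with 44 and 26 UMIs and 1.13 (0.37 to 1.86). Myd88 had 16 and 2 UMIs and Tlr12 had 12 and 0. Of 31 type I interferon response genes, 5 could be compared, 0 were past 2-fold in either direction, and the median was 0.05. Ly6e, with 578 and 121 UMIs, had a log2 ratio of -0.37 and Ifi203, with 135 and 51, of 0.48. Isg15 had 26 and 13 UMIs. Ifitm1 and Ifitm3, which interferon also induces and which the list does not hold, are given with the lowest ratios.

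Immediate early genes were the list with the most members past 2-fold by count, and also the list with the most members compared. By share, the cell cycle genes (5 of 11) and heat shock genes (4 of 12) had more past 2-fold. All 29 could be compared, 8 were past 2-fold lower, against the background of 7.00%, and 0 higher, with a median of -0.63. Fosb, an AP-1 subunit, stood at 747 and 158 CPM, with a log2 ratio of -2.24 (-2.91 to -1.63), and Jun, its partner, at 1302 and 399 CPM, -1.71 (-2.12 to -1.32). Zfp36, which speeds mRNA decay, had -1.54, Nr4a1, a receptor target gene, -1.44, Atf3 -1.49, Ppp1r15a -1.14 and Nfkbiz -1.09, and Cd69 was the eighth. In CD8 cytotoxic T cells Fosb had -1.63, Nr4a1 -1.42 and Nfkbiz -1.18, but Jun -0.23 and Atf3 0.01.

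Heat shock genes went the other way. All 12 had a log2 ratio above 0, against 1009 of all 2057 genes compared. Past 2-fold higher were 4, against the background of 3.11%, and the median of the list was 0.58. Hspa1b, an inducible chaperone, stood at 814 and 2701 CPM, 1.73 (1.53 to 1.93), and Hspa1a at 635 and 1567 CPM, 1.30 (1.05 to 1.55). Hspd1 had 1.06 and Hsph1 1.01. The same 2 leading genes were higher throughout the TLR9agonist_LW library, since Hspa1b had 874 and 2865 CPM in all other cells and a log2 ratio of 1.53 in CD8 cytotoxic T cells. Without any Lyz2 UMI allowed the median of the list was 0.02 and Hsph1 had -1.31.

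Of 29 cell cycle genes, 11 could be compared, 5 were past 2-fold lower and 0 higher, with a median of -0.70. Mki67, a marker of cycling cells, had 67 UMIs in 10 WT_LW cells, 40.3% of them in 1 cell, and 3 UMIs in 2 TLR9agonist_LW cells, a log2 ratio of -2.59 (-4.91 to -0.98). Top2a had 57 and 3 UMIs, -2.36 (-4.68 to -0.74), and Tuba1b, Pcna and Tubb5 had -1.47, -1.31 and -1.09. With each cell thinned to 1500 UMIs the median of the list was 0.51. Thinning lowers the UMI counts, so fewer of the 11 genes can reach the count needed for comparison, and those behind 0.51 are not given. Thinning also gives each cell the same total. The medians of -0.70 and 0.51 may thus rest on different genes. The lower median was not shown to be stable, and whether it depends on depth was not tested. Of 20 glycolysis and hypoxia genes 10, and of 20 survival and death genes 11, could be compared, and 0 were past 2-fold, with medians of 0.18 and 0.21.

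The 10 genes with the lowest ratios were led by Ifitm1, an interferon-induced membrane protein that restricts virus entry. It had 596 UMIs in 33 of 80 WT_LW cells and 15 UMIs in 5 of 26 TLR9agonist_LW cells, which is 1107 and 103 CPM and a log2 ratio of -3.42 (-4.27 to -2.69). All other cells held 199 and 152 CPM, and CD8 cytotoxic T cells went the opposite way, from 447 to 1032 CPM (1.21, 1.10 to 1.31). Its neighbour Ifitm3 stood at 576 and 165 CPM, -1.80 (-2.47 to -1.20), with 0.69 in CD8 cytotoxic T cells.

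Ifitm1 lay in the cells without Gzma, at 1219 CPM without against 19.8 CPM with it in WT_LW, and at 136 against 0 CPM in TLR9agonist_LW. Within cells with Gzmc it was 1578 CPM in WT_LW (44 cells) and 158 CPM in TLR9agonist_LW (5 cells). Ifitm1 was thus lower in TLR9agonist_LW among the cells with Gzmc too, but that level rests on 5 cells and is given without an interval. Under every alternative run the Ifitm1 ratio across all NK-like cells was below -2.

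Plac8, a small protein of myeloid and lymphoid cells, had 91 and 5 UMIs and a log2 ratio of -2.30 (-3.96 to -1.02), but -0.22 with each cell thinned to 1500 UMIs. Col4a1 and Igfbp7, genes of vessel and stromal cells, had -2.67 and -2.03, each with a higher level in all other cells than in NK-like cells of both libraries. Fosb is given above, and Use1, Kcnq1ot1, Suz12 and Sept9 had between -1.98 and -1.81 on 5 or 6 TLR9agonist_LW UMIs each.

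The 10 genes with the highest ratios belong to other cell types. They were S100a9 (6.09) and S100a8 (4.76), abundant in neutrophils, Igfbp2 (3.62), Cxcl2 (3.19), Krt10 (3.13), BC100530 (3.09), Krt16 (2.83), Thbs1 (2.82), Lgals7 (2.45) and Ccl2 (2.31). Each was lower in NK-like cells than in all other cells of both libraries and had a ratio above 0 in CD8 cytotoxic T cells too. S100a9 stood at 13.0 CPM in the NK-like cells of WT_LW, where all other cells held 261 CPM, and at 887 CPM in those of TLR9agonist_LW, where all other cells held 2855 CPM. No expression by NK-like cells is read from these levels. For Cxcl2, 86.5% of the TLR9agonist_LW UMIs were in 1 cell, and without the richest cells its ratio was 0.68. Igfbp2 had 79.2% and Thbs1 59.5% of the TLR9agonist_LW UMIs in 1 cell.

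Marker lists of other cells were also detected. The 7 neutrophil markers summed to 48.3 CPM in the NK-like cells of WT_LW and 1588 CPM in those of TLR9agonist_LW, with Retnlg and Cxcr2 at 0 UMIs in both. The 8 keratinocyte markers summed to 422 and 1849 CPM and the 7 fibroblast markers to 9389 and 14900 CPM, against 23478 and 38862 CPM in all other cells. The 5 pericyte and smooth muscle markers went the opposite way, 888 and 75.6 CPM, as did the 12 macrophage and monocyte markers, 1462 and 852 CPM, with Fcgr1 at 0 UMIs in both. Per cell, fibroblast markers took at most 8.91% and 9.86% of the UMIs and pericyte markers at most 3.21% and 0.0337%. Doublets were not called, and the part of these markers in the ratios above was not tested.

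**Figure D5:**
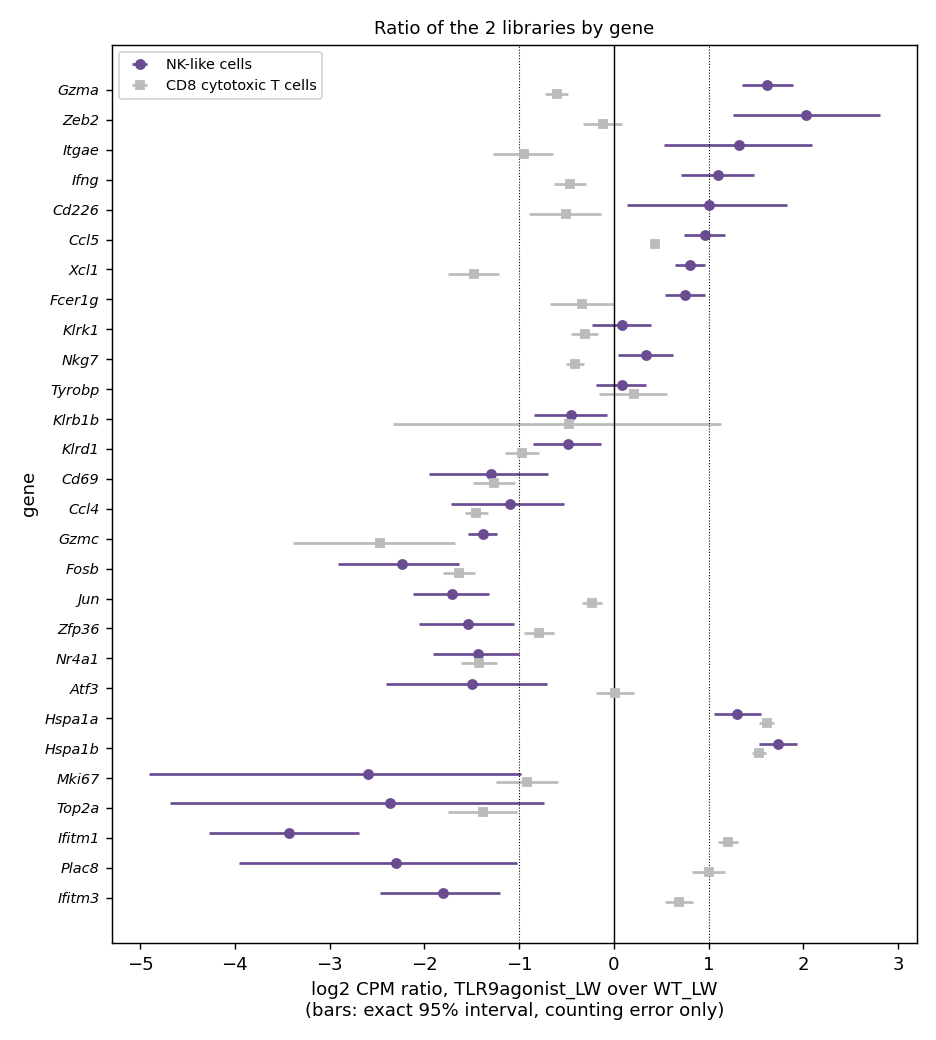
Log2 ratio of CPM, TLR9agonist_LW over WT_LW, for 28 genes in NK-like cells (circles) and CD8 cytotoxic T cells (squares), with exact 95% intervals for counting error; dotted lines mark 2-fold. Klrk1 and Tyrobp lie near 0 in NK-like cells, Gzma, Ifng, Itgae and Cd226 lie above 0 there and below it in CD8 cytotoxic T cells, and Ifitm1, Plac8 and Ifitm3 the reverse.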

How the data were processed

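Skin cells of 2 mouse groups were profiled on the 10x Genomics 3′ platform, 1 library per group. The deposited files hold raw UMI counts per gene and cell barcode (27998 genes), which per the file headers the authors made with cellranger 4.0.0; the submitters' processing notes also name fastp, Seurat and the build mm9. The files carry no coordinates, and the promoters come from RefSeq on GRCm38.p6. Per the study's methods, tissue was enzymatically dissociated and dead cells were removed.

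Here the counts were filtered (at least 500 UMIs and 300 genes, at most 15% mitochondrial UMIs), which kept 11443 of 12800 and 13206 of 13751 cells, and gated by the rule given. No clustering and no doublet caller was run. UMIs were summed over gated cells and expressed as CPM, with exact Poisson intervals, exact conditional intervals for ratios and Clopper-Pearson intervals for shares (95%), which cover counting error only. Genes with at least 50 UMIs in the gate were compared, and a CPM ratio of 2 was the fold used. A count of 0 allows up to 3 counts, which is 5.57 CPM in WT_LW and 20.6 CPM in TLR9agonist_LW. Thinning used 1500 UMIs per cell (2 WT_LW cells were shallower) and seed 1. The ratio and interval code was tested on simulated data. Intervals came from scipy 1.17.1, tables from pandas 2.3.3 and numpy 2.4.6 under Python 3.11.15, and figures from matplotlib 3.10.9.

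Genes are named from the gate, from the gene and marker lists, as the 10 highest and 10 lowest library ratios with at least 5 UMIs in each library, and as the 15 highest and 15 lowest against CD8 cytotoxic T cells. Mitochondrial, ribosomal protein, T cell receptor, immunoglobulin, unnamed and sex-chromosome check genes were left out of the last 2 sets. Styk1 and Dscam were named after their values were seen. The members and lists were chosen with earlier results of these data known. Some genes are not reported here. The number of mice pooled per library differs within the study's text and is not given.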

Additional observations from a re-analysis of the deposited data

Results flagged for a closer look

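Among the named genes past 2-fold in NK-like cells, 7 had a ratio of the opposite sign in CD8 cytotoxic T cells, with intervals on either side of 0; with 1 library per group the difference between the populations was not tested. Log2 ratios of TLR9agonist_LW over WT_LW are given for NK-like cells and then for CD8 cytotoxic T cells. Lower in NK-like cells were Ifitm1 (-3.42 and 1.21), Plac8 (-2.30 and 1.0) and Ifitm3 (-1.80 and 0.69). Higher in NK-like cells were Gzma (1.62 and -0.60), Itgae (1.32 and -0.95), Ifng (1.10 and -0.46) and Cd226 (1.0 and -0.51). Without the richest cell of each library Ifng had 0.17 in NK-like cells, and with cells thinned to 1500 UMIs Plac8 had -0.22. The Itgae ratio also fell without its richest cells, and the Gzma ratio fell with cells holding T cell genes left out, as given above. The share of all genes past 2-fold that had the opposite sign in CD8 cytotoxic T cells is not given, so no result is read from the count of 7.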

How the results depend on the processing

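No paired analysis was possible because each group is 1 library, and for the same reason no replicate could be left out. Across the settings, 10 of 11 values of the share, 50 of 54 of the make-up and 11 of 14 of the CD8 counts stayed close to the reported ones, as did 194 list medians and 1022 gene ratios, while 19 and 157 of these moved. Without any Lyz2 UMI allowed, the log2 ratio of the shares was -0.91, 34 genes were past 2-fold lower, 247 were 2-fold lower than in CD8 cytotoxic T cells, and Hsph1 had -1.31. That CD8 count was 249 without cells over 1% of another class and, in an alternative chosen after seeing the data, 224 without cells over 5%. With cells holding a UMI of 8 T cell genes left out (25 and 12 cells remained), 26 genes were higher and 32 lower, Gzma, Gzmc and Il7r were in 28%, 36% and 52% of WT_LW cells, and Cxcl2 (-0.36), Tuba1b (0.35) and Tubb5 (0.33) changed sign. Thinned to 1500 UMIs, 19 genes were higher and 24 lower, Il7r was in 50% of WT_LW cells, and Ctsc (0.32) and Top2a (0.58) changed sign. The number of genes past 2-fold follows the count filter: 201 higher and 603 lower at 20 UMIs, and 12 and 19 at 200. Also chosen after seeing the data, genes 4-fold over all other cells gave 3 and 5, and with at most 1 Cd3 UMI allowed BC100530 (-0.80), Krt10 (-1.42), Krt16 (-0.39) and Lgals7 (-0.62) changed sign. The causes of the sign changes were not tested. With 26 TLR9agonist_LW cells, single cells decide the ratios of genes with few UMIs.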

Other observations

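Il17a, a cytokine of γδT17 cells and ILC3s, had 0 UMIs in the NK-like cells of WT_LW and 9 UMIs in 7 cells of TLR9agonist_LW. Thinned to 1500 UMIs per cell, 7.69% of the 26 TLR9agonist_LW cells had it, against 5.44% of fibroblasts and 2.57% of keratinocytes of the same library. With so few cells no difference is read from these shares. The other γδT17 markers Blk, Sox13, Il23r and Ccr6 had no UMI, and Cd163l1 had 11 and 2.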
